A study of Oryza sativa Japonica Group and Oryza sativa Indica Group and Oryza sativa Indica Group x Oryza sativa Japonica Group with 9 samples.

Results

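In shoots of the F1 hybrid of rice C92 and MH63, 84 loci had a mean level close to that of the parent with more transcript. They were among 1230 loci whose level differed between the parents by the rule below, out of 55783 loci in all. Levels are in FPKM (fragments scaled for transcript length and sequencing depth). A locus was called divergent here when the higher parent averaged at least 5 FPKM and the lower at least 0.5, the higher mean was at least 2 times the lower, and all 3 libraries of the higher parent lay above all 3 of the lower. The place of F1 between the parents, called its position, is the F1 mean minus the lower parent's mean, divided by the higher minus the lower mean, so 0 is the lower parent, 1 the higher and 0.5 the arithmetic mid-parent. Members had a position between 0.85 and 1.15. C92 was the higher parent for 54 members and MH63 for 30, and these classes, C92-high and MH63-high, are described apart.

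The hybrid, labelled as a cross of Oryza sativa indica and japonica rice, and both parents were grown under the same conditions, and 14-day-old shoots gave 3 libraries of polyadenylated RNA for each of F1, C92 and MH63. C92 is labelled japonica rice. MH63 is labelled indica rice, and the name stands for Minghui 63, a restorer line of hybrid rice breeding. All plants stood in water at 28 °C, in long days of 16 h light (100 µmol m-2 s-1) with 8 h dark. The labels write the cross in both orders, so the seed parent is not known here, and they do not say how plants were divided among the replicates. In bulk shoots, a change in the number of cells of a type and a change in RNA per cell cannot be told apart.

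An F1 plant carries a C92 copy and an MH63 copy of each gene that both parents have. When each copy keeps the activity it had in its parent, the hybrid lies at the mid-parent, which is called additive expression. A hybrid at the level of one parent shows expression-level dominance, a term that describes the level and does not say which copy was transcribed. Sequence changes next to a gene act on their own copy only, in cis, whereas factors such as transcription regulators act on both copies, in trans. FPKM per locus do not separate the copies.

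The files give locus IDs without gene names, and the gene table used here holds 0 of these IDs. Members are therefore described by level, position and chromosome, with no gene function, and shoot marker genes could not be checked. The members were chosen by the same FPKM values that are described, so their levels and positions carry no test. All 84 passed the filter of the fit across loci (at least 1 FPKM in at least 3 libraries), which the rule nearly forces.

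FPKM sums were 602005 to 623806 per library, and relative sequencing depth, read from low values, was 0.956 to 1.25 times that of C92 library 1. Read totals are not given, so no counting interval can be stated. The F1 libraries were not alike. Over the C92-high divergent loci the median position was 0.475, 0.524 and 0.365 in F1 libraries 1, 2 and 3. Over the MH63-high divergent loci it was 0.367, 0.336 and 0.494. Compared with each other, libraries 1 and 2 stood more to the C92 side and library 3 more to the MH63 side, in both classes. Which of them is typical of the hybrid was not tested. With library 3 as the one F1 library, the rule found 45 C92-high and 54 MH63-high loci, and without library 3 it found 62 and 26.

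Positions at the higher parent were a small share of the divergent loci in both classes. Members made up 8.07% of the 669 C92-high loci and 5.35% of the 561 MH63-high loci. Positions at the lower parent, from -0.15 to 0.15, were held by 18.1% of C92-high and 12.7% of MH63-high loci, that is 121 and 71 loci. The middle of the range, 0.35 to 0.65, held 33.6% and 42.6%. Above the band lay 32 C92-high and 16 MH63-high loci. The order of the classes followed the library: the share inside the band was 9.57%, 10.01% and 6.73% of C92-high loci in F1 libraries 1, 2 and 3, against 4.46%, 4.81% and 9.63% of MH63-high loci.

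**Figure D1:**
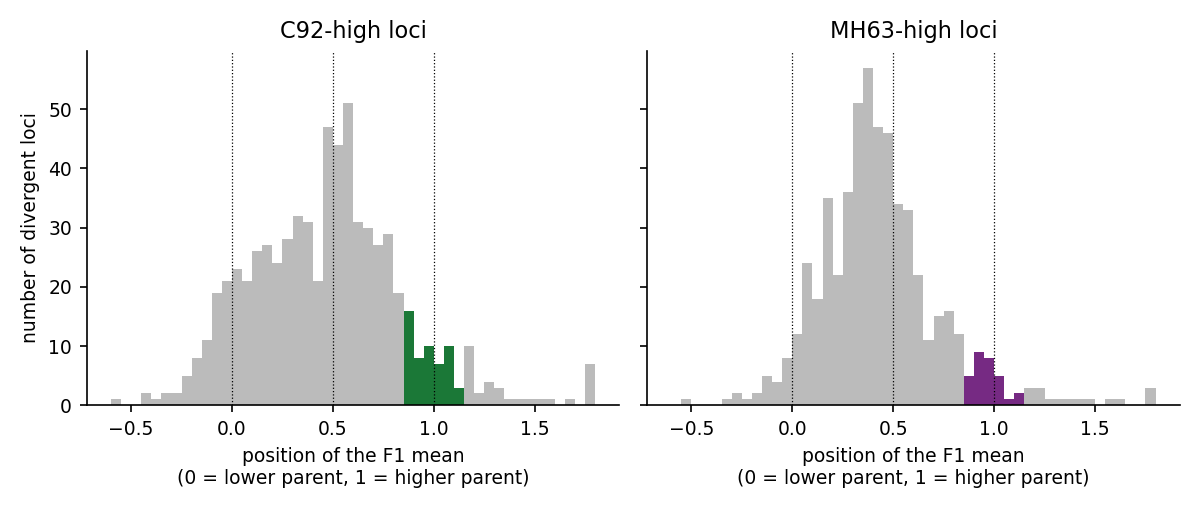
Number of divergent loci (y axis) by position of the F1 mean (x axis, 0 at the lower and 1 at the higher parent, bins of 0.05), for C92-high loci on the left and MH63-high loci on the right; members are coloured, other loci grey, and the last bin also holds positions above 1.8 (7 and 3 loci). Most loci of both classes lie below 0.85, and the band from 0.85 to 1.15 holds 54 and 30 loci.

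No gap set the members apart from their neighbours on this scale. The C92-high positions nearest to the lower edge of the band were 0.851 inside and 0.848 outside, and those nearest to the upper edge were 1.13 inside and 1.16 outside. For MH63-high loci they were 0.866 and 0.844 at the lower edge, and 1.145 inside and 1.16 outside at the upper. Parental ratios on either side of the 2-fold limit were also close, with a larger over smaller mean of 2.004 inside and 1.998 outside for C92-high loci and 2.01 and 1.99 for MH63-high loci.

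C92-high members covered a wide range of levels. F1 means ran from 4.68 to 234 FPKM with a median of 12.7, C92 means from 5.28 to 217 with a median of 13.1, and MH63 means from 0.513 to 80.7 with a median of 4.36. The C92 to MH63 ratio had a median of 2.65 and ran from 2.00 to 16.9, and it was under 3 in 33 of the 54 members and at least 5 in 9. Over all 669 C92-high loci the median ratio was 2.68. The F1 mean was 0.874 to 1.09 times the C92 mean, above it in 20 members and below it in 34. All 3 F1 libraries lay above all 3 MH63 libraries in 54 of 54 members and in 69.7% of all C92-high divergent loci. Over all 21447 loci tested that share was 22.1%. The rule used these values, so nothing is read from the count of members.

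LOC_Os01g37630, on chromosome 1, had the largest parental ratio among C92-high members that averaged at least 10 FPKM in C92 and had every F1 library inside the band. Its level was 54.3, 52.0 and 51.0 FPKM in the F1 libraries, 53.5, 44.7 and 63.8 in C92, and 6.60, 7.02 and 8.66 in MH63. The F1 values all lay within the C92 range and far above every MH63 value. Means were 52.4 ± 1.67 FPKM in F1, against 54.0 ± 9.55 in C92 and 7.43 ± 1.09 in MH63 (SD, n = 3 each), a log2 ratio of C92 to MH63 of 2.86 and a position of 0.966.

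LOC_Os09g04384, on chromosome 9, came second by the same criteria. It had 31.8, 26.7 and 31.8 FPKM in F1, against 28.3, 34.2 and 25.2 in C92 and 4.70, 4.46 and 4.27 in MH63. F1 and C92 libraries overlapped, and MH63 lay below both. The means of 30.1 ± 2.96, 29.2 ± 4.55 and 4.48 ± 0.215 FPKM (SD, n = 3 each, F1, C92 and MH63) gave a position of 1.04 and a log2 ratio of C92 to MH63 of 2.71.

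Inside the band in all 3 F1 libraries were 6 of the 54 C92-high members. Besides the 2 named loci these were a further locus of chromosome 1 and loci of chromosomes 2, 9 and 11. The one on chromosome 11 had 74.0, 73.5 and 78.7 FPKM in F1, against 76.5, 78.1 and 78.9 in C92 and 43.9, 37.5 and 31.5 in MH63. The other locus of chromosome 1 had 73.2, 76.5 and 64.3 FPKM in F1, against 69.39, 69.96 and 71.98 in C92 and 27.7, 29.4 and 24.9 in MH63. In both, the C92 libraries lay within a few FPKM of each other. On chromosome 2, by contrast, the C92 libraries themselves ran over a wide range, with 24.8, 26.6 and 26.3 FPKM in F1, against 16.9, 24.8 and 36.6 in C92 and 11.6, 14.1 and 9.36 in MH63.

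The C92-high member with both the highest level and the largest parental ratio was a locus of chromosome 5. It had 198, 234 and 272 FPKM in F1, against 180, 205 and 265 in C92 and 15.8, 13.6 and 9.0 in MH63. F1 and C92 overlapped over most of their range, although the libraries of each varied widely. At the low end, a locus of chromosome 3 had 5.65, 4.46 and 3.94 FPKM in F1, against 7.98, 3.64 and 4.21 in C92 and 0.0, 1.19 and 0.35 in MH63. The C92 mean of 5.28 FPKM there, just above the minimum of 5, rests on a single library.

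**Figure D2:**
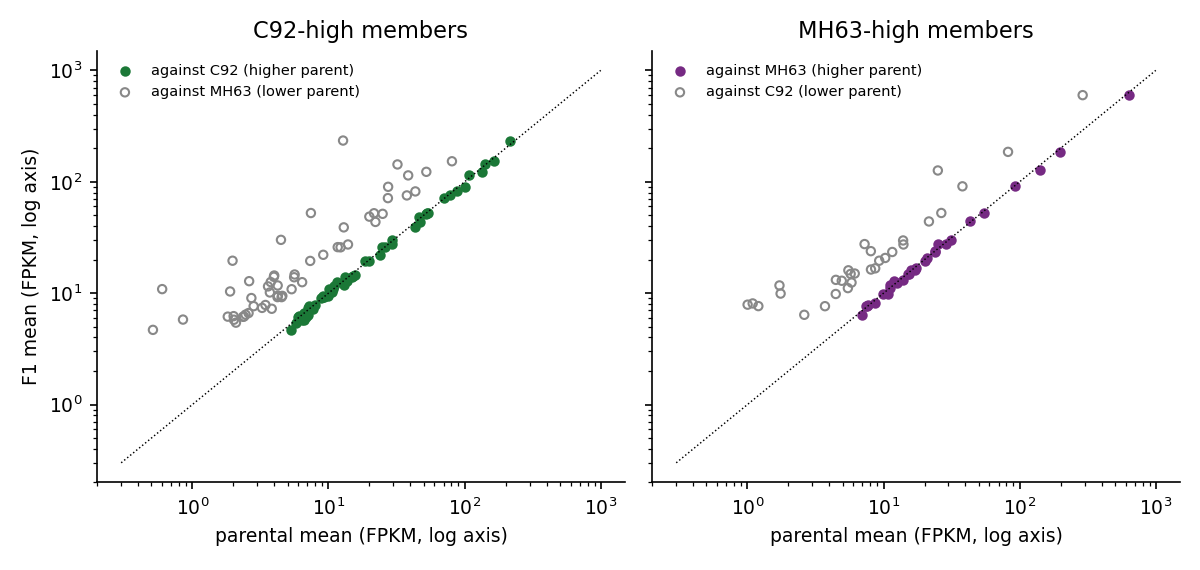
F1 mean of each member (y axis, FPKM, log axis) against the mean of its higher parent (filled) and its lower parent (open) (x axis, FPKM, log axis), for 54 C92-high members on the left and 30 MH63-high members on the right; the dotted line marks equal levels. Filled points lie along the line because the rule chose them so, and members span levels from under 10 to over 100 FPKM in both classes.

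MH63-high members were fewer, and their F1 libraries lay further apart relative to the parental difference. F1 means ran from 6.39 to 599 FPKM with a median of 16.2, C92 means from 1.00 to 290 with a median of 6.70, and MH63 means from 6.94 to 639 with a median of 16.4. The C92 to MH63 ratio had a median of 0.414 and ran from 0.126 to 0.499, against a median of 0.358 over all 561 MH63-high loci. The larger parental mean was under 3 times the smaller in 22 of the 30 members and at least 5 times in 6. All 3 F1 libraries lay above all 3 C92 libraries in 29 of 30 members and in 74.7% of all MH63-high divergent loci. Over all loci tested that share was 21.5%, and again the rule used these values.

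LOC_Os02g44880, on chromosome 2, was the only one of the 30 with every F1 library inside the band. It had 12.1, 12.4 and 12.9 FPKM in F1, against 6.06, 5.76 and 5.64 in C92 and 13.4, 13.2 and 11.0 in MH63. The F1 values lay within the MH63 range, and every C92 value was lower. Means were 12.4 ± 0.391 FPKM in F1, against 5.82 ± 0.216 in C92 and 12.5 ± 1.33 in MH63 (SD, n = 3 each), a log2 ratio of C92 to MH63 of -1.11 and a position of 0.987.

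LOC_Os08g07720, on chromosome 8, had the largest ratio between the parental means among MH63-high members and was named after its values were seen. It had 5.98, 5.81 and 12.5 FPKM in F1, against 0.94, 1.44 and 0.90 in C92 and 7.81, 12.9 and 5.24 in MH63. Its mean of 8.087 ± 3.797 FPKM in F1, against 1.09 ± 0.301 in C92 and 8.66 ± 3.92 in MH63 (SD, n = 3 each), gave a position of 0.924. That mean described none of the F1 libraries, whose positions were 0.646, 0.623 and 1.503. The log2 ratio of C92 to MH63 was -2.99.

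The most abundant member of either class was an MH63-high locus of chromosome 12, with 510, 530 and 758 FPKM in F1, against 271, 278 and 322 in C92 and 652, 702 and 563 in MH63. F1 library 3 lay above every MH63 library there, while libraries 1 and 2 lay below them all. An MH63-high locus of chromosome 1 had 104, 114 and 161 FPKM in F1, against 23.3, 32.3 and 19.5 in C92 and 150, 191 and 84.5 in MH63. Its F1 libraries were all inside the MH63 range, which itself spanned more than a doubling.

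**Figure D3:**
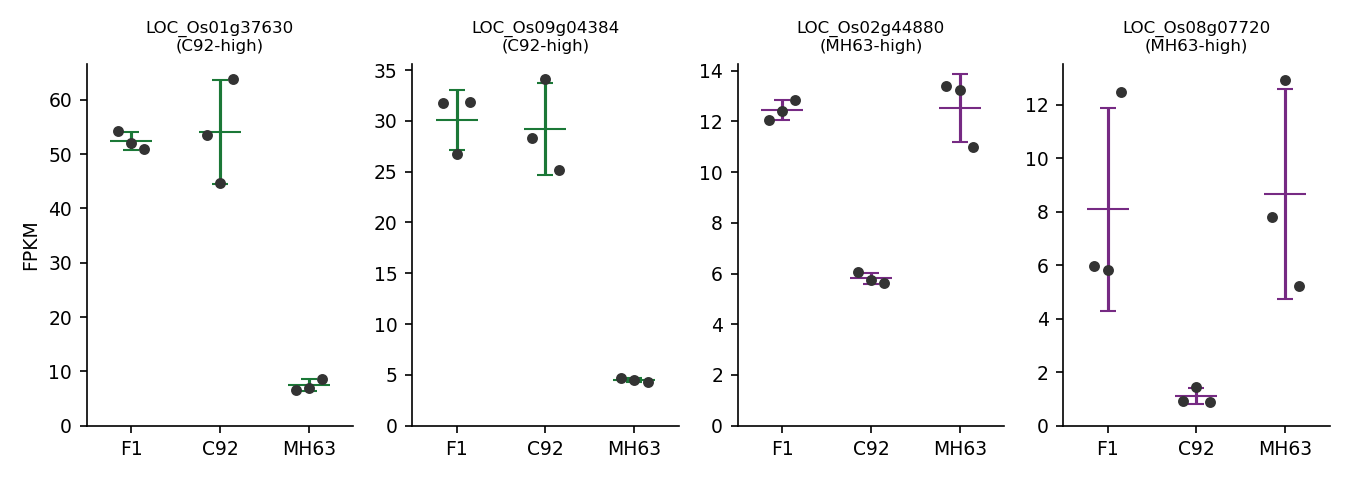
FPKM (y axis, from 0) in the 3 libraries of F1, C92 and MH63 (points) with the mean and SD (bars) for the 4 named loci. In the first 3 panels every F1 library lies near the mean of the higher parent, whereas for LOC_Os08g07720 the F1 values are 5.98, 5.81 and 12.5 FPKM.

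The average over 3 libraries hid much of this spread. Of the 54 C92-high members, 27, 21 and 23 were inside the band in F1 libraries 1, 2 and 3, and 9 were inside it in no single library. Of the 30 MH63-high members, 9, 10 and 8 were inside the band in these libraries, and 12 in none. Median positions of C92-high members were 0.922, 1.04 and 0.931 in libraries 1, 2 and 3. For MH63-high members they were 0.762, 0.877 and 1.29. Library 3 was the highest F1 library in 20 of 30 MH63-high members, and also in 331 of all 561 MH63-high divergent loci. It lay above the band in 19 of the 30 members. Among C92-high members library 2 was the most often highest, in 26 of 54, as it was in 369 of all 669 C92-high divergent loci. F1 libraries 1, 2 and 3 lay above the band in 7, 17 and 10 of the 54 members.

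The distance between the highest and the lowest F1 library, as a share of the distance between the parental means, had a median of 0.435 in C92-high members and 0.651 in MH63-high members. Over all divergent loci the medians were 0.2998 and 0.299. For the libraries of the higher parent the same measure was 0.474 in C92-high and 0.423 in MH63-high members. The libraries of one genotype thus often differed by more than the width of the band, which is 0.3 on this scale. Members and all divergent loci stood at unlike F1 levels, so their F1 spreads are not a comparison of like with like. The F1 mean had a median of 0.984 and 0.980 times the higher parent in C92-high and MH63-high members. Over all divergent loci these medians were 0.640 and 0.606.

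**Figure D4:**
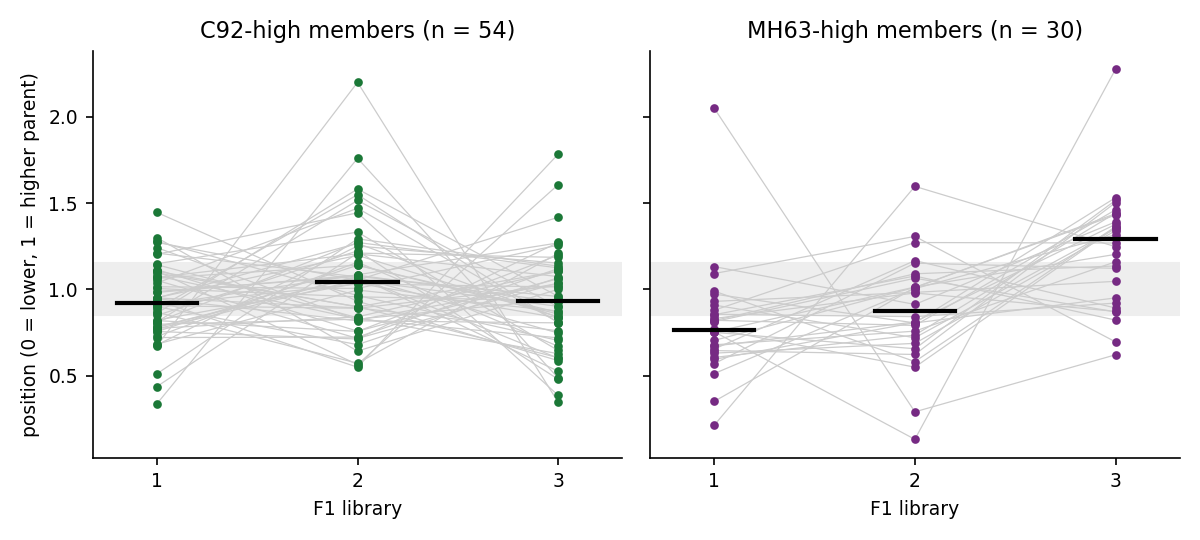
Position of each member in F1 libraries 1, 2 and 3 (points; y axis, 0 at the lower and 1 at the higher parent), with grey lines joining the same locus, black bars at the medians and the band from 0.85 to 1.15 shaded. C92-high medians are 0.922, 1.04 and 0.931, and MH63-high medians are 0.762, 0.877 and 1.29, with library 3 above the band for 19 of 30 loci.

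Libraries that took no part in the choice gave another view. When 1 F1 library was left out of the rule, the loci chosen by the rest had median positions in the left-out library of 0.779, 0.944 and 0.758 for C92-high loci (53, 50 and 62 loci, leaving out library 1, 2 and 3). For MH63-high loci they were 0.656, 0.747 and 1.08 (41, 36 and 26 loci). These medians lay above those of all divergent loci in the same library in every case. The left-out library was inside the band for 24.2% to 32.1% of C92-high and 17.1% to 26.9% of MH63-high loci so chosen. The parental means were shared between choice and reading.

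With a replicate number left out in all 3 groups, so that the parental values were new as well, the medians were 0.874, 1.21 and 0.597 for C92-high loci and 0.698, 0.516 and 1.36 for MH63-high loci, for numbers 1, 2 and 3. These medians cover only loci whose parents kept their order in the left-out libraries (51 to 71 C92-high and 20 to 46 MH63-high loci). Of these loci, 14.1% to 24.2% of C92-high and 15.2% to 21.2% of MH63-high loci were inside the band. Over all divergent loci read in the same way, the medians were 0.445, 0.603 and 0.315 for C92-high loci and 0.404, 0.310 and 0.551 for MH63-high loci, with 4.91% to 10.1% and 3.58% to 10.3% inside the band. The lowest median of the chosen loci, 0.516, came with 18 of 33 loci above 0.5. Most single loci were outside the band.

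Counts of called loci are given for completeness, from limma's moderated test on log2(FPKM + 1) with a Benjamini-Hochberg adjusted p below 0.05 over all 21447 loci tested; the rule used these contrasts and nothing is read from the counts. F1 was called above MH63 in 54 of 54 C92-high members, where 11.5% of all loci were called so. F1 was called above C92 in 28 of 30 MH63-high members, where 10.6% were. Against the higher parent, 0 of 54 members were called different from C92 and 0 of 30 from MH63, where 24.3% and 18.9% of all loci were called. Those 0 counts do not show that the levels were equal, since the libraries spread widely.

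F1 was called above the arithmetic mid-parent in 18 C92-high and 2 MH63-high members, where 3.36% of all loci were called. Both counts moved when single libraries were left out, which also leaves the fit with fewer libraries. Without F1 library 1, 2 or 3 they were 9, 8 and 8 for C92-high and 4, 0 and 0 for MH63-high members. The C92-high count was also 9 when C92 library 2 was dropped, 10 when it was C92 library 3, and 10 when it was MH63 library 1. It was 15, 13 and 16 without C92 library 1, MH63 library 2 and MH63 library 3. The MH63-high count was 4 when C92 library 1 was dropped, 1 when it was C92 library 2, and 1 when it was MH63 library 1. It was 3, 2 and 3 without C92 library 3, MH63 library 2 and MH63 library 3.

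In the C92-high class the share of loci at the lower parent differed between bins of parental ratio more than the share at the higher parent did. Of C92-high loci with a ratio from 2 to 3, from 3 to 5 and at or above 5, members were 8.38%, 7.95% and 7.26%, whereas loci at the lower parent were 24.1%, 12.6% and 5.65%. For MH63-high loci members were 6.88%, 1.61% and 5.13% over the same bins, the middle one resting on 2 of 124 loci, and loci at the lower parent were 13.4%, 14.5% and 8.55%. By level of the higher parent, members were 8.68%, 6.71% and 11.2% of C92-high loci at 5 to 10, 10 to 50 and at or above 50 FPKM. They were 3.39%, 6.83% and 4.72% of MH63-high loci. No test over loci was run on these shares.

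Members were found on all 12 chromosomes, with the chromosome read from the locus ID. C92-high members numbered from 1 of 47 divergent loci on chromosome 8 to 8 of 38 on chromosome 9, which is 21.1% there against 8.07% over all chromosomes. The chromosome 9 share dropped to 10.5%, with 4 members, when F1 library 2 was left out and again when F1 library 3 was. It was 13.9% without C92 library 2 and 15.2% with median-ratio scaling. Without C92 library 3 it rose to 25%, and without MH63 library 2 to 23.5%. MH63-high members were 0 of 56 divergent loci on chromosome 4 and 0 of 40 on chromosome 6, and at most 5, on chromosome 3.

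**Figure D5:**
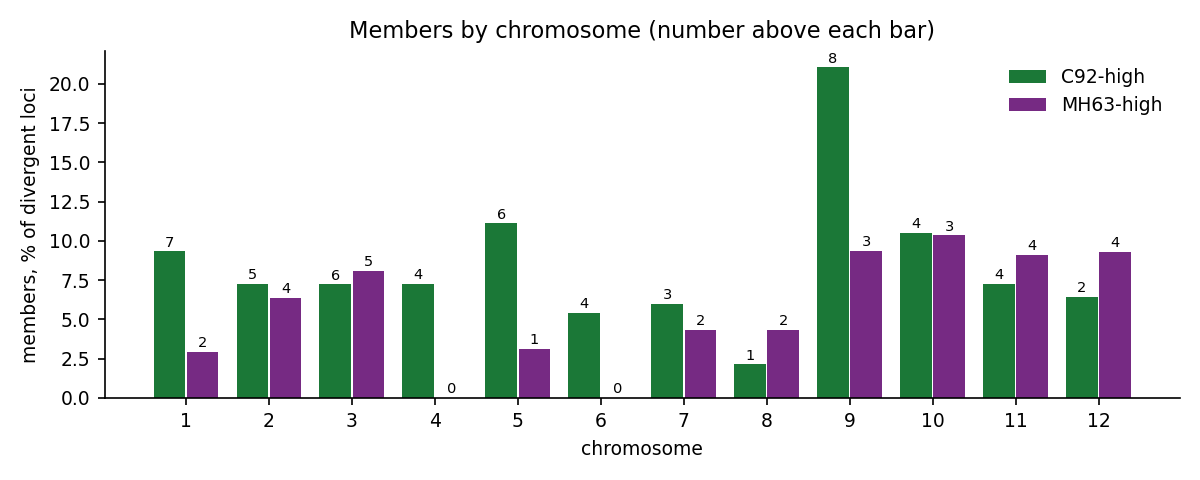
Members as a percentage of the divergent loci of their class (y axis) on chromosomes 1 to 12 (x axis), C92-high left and MH63-high right of each tick, with the number of members above each bar. Chromosome 9 has the highest C92-high bar, 8 of 38 loci, a value that falls to 4 of 38 without F1 library 2 or without F1 library 3.

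Among tested loci in ID order, 1 pair of C92-high members was adjacent, on chromosome 12, and 1 pair of MH63-high members, on chromosome 11. All 669 C92-high divergent loci formed 46 adjacent pairs, and all 561 MH63-high divergent loci formed 46. The chromosome 12 loci had means of 6.13 ± 1.27 and 12.8 ± 2.19 FPKM in F1, against 6.21 ± 1.49 and 13.7 ± 2.64 in C92 and 2.35 ± 0.656 and 2.61 ± 0.676 in MH63 (SD, n = 3 each). The chromosome 11 loci had 6.39 ± 0.181 and 27.4 ± 6.25 FPKM in F1, against 2.62 ± 0.502 and 14.0 ± 1.38 in C92 and 6.94 ± 2.49 and 28.9 ± 3.61 in MH63. The nearest divergent locus of the same class was itself a member for 6 of 54 C92-high members and for 2 of 30 MH63-high members. For the other divergent loci it was a member in 8.46% and 5.84% of cases.

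A small core of members did not depend on any single library. Of the 54 C92-high members 5, and of the 30 MH63-high members 2, met the rule each time 1 of the 9 libraries was left out, and all 7 also met it after quantile normalization and after median-ratio scaling. LOC_Os01g37630 and LOC_Os02g44880 were among them. A chromosome 4 locus of this core had 9.98, 12.1 and 9.03 FPKM in F1, against 10.4, 10.3 and 10.5 in C92 and 1.63, 2.17 and 1.88 in MH63. The other MH63-high locus of the core, on chromosome 11, had 14.0, 16.8 and 17.3 FPKM in F1, against 6.63, 5.86 and 4.06 in C92 and 14.4, 15.5 and 17.8 in MH63. In both, the range of the F1 libraries overlapped that of the higher parent, and every F1 library lay above the lower parent. The rule used these values, so nothing is read from that. At the chromosome 4 locus no F1 library lay within the narrow C92 range, and F1 library 1 alone was inside the band. At the chromosome 11 locus 2 of the F1 libraries were inside the band.

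The reference to which reads were aligned is not given, so lower expression in a parent and a poorer match of its reads cannot be told apart. C92-high and MH63-high loci may not be equally exposed to a poorer match, which was not tested. Strand is not stated either, so loci that overlap on opposite strands are uncertain, as are loci with near-identical copies.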

How the data were processed

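Polyadenylated RNA from 14-day-old shoots was sequenced in 9 libraries, 3 each of F1, C92 and MH63. Alignment was with HISAT2 2.0.5, per the submitters' processing notes. Not given in the sources used here are the build, annotation and expression program. The authors deposited FPKM per locus and library with no header. FPKM are not counts, so no count model was used.

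The rule was applied to FPKM means of each group. Loci with at least 1 FPKM in at least 3 libraries were fitted with limma 3.58.1 (R 4.3.3), applied to log2(FPKM + 1) with a mean for each group and an intensity trend in the variance prior, two-sided. Mid-parent levels are arithmetic means of the fitted parental levels, taken back to log2, with a delta-method error. The fit and the rule were run on simulated data as a check of the code only. Simulated loci for the rule had less spread between libraries than most members. That check therefore does not show how often the rule errs on these data. Fold changes on this scale understate low loci.

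The members, lists and tests were chosen with earlier results of these data known. Named loci are, in each class, the 2 with the largest parental ratio among members with at least 10 FPKM in the higher parent and all F1 libraries inside the band. For MH63-high loci 1 met this and a further one was added. End loci of runs of members, which held 2 at most, are not printed by ID. Gene groups and tissue markers could not be formed without gene names. Relative depth is the commonest ratio of the values of C92 library 1 to those of a library. It was taken over values of 0.2 to 1.5 FPKM and counted within 0.015 on the log2 scale.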

Additional observations from a re-analysis of the deposited data

How the results depend on the processing

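Leaving out 1 library at a time gave 46 to 74 C92-high and 26 to 44 MH63-high members, of which 26 to 50 and 13 to 29 were members with all libraries. The share of divergent loci was 6.84% to 11.6% (C92-high; highest without C92 library 3) and 4.63% to 7.31% (MH63-high), and the median position over divergent loci 0.394 to 0.526 (lowest without C92 library 1) and 0.352 to 0.443. Members called against the lower parent numbered 46 to 52 and 28 to 30, against the higher parent 0 in both classes, and above the mid-parent 8 to 16 and 0 to 4.

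On the log2(FPKM + 1) scale there were 101 C92-high and 58 MH63-high members, 15.1% and 10.3% of divergent loci, with median positions of 0.608 and 0.547. The arithmetic mid-parent lies above 0.5 on that scale, so the change of scale alone raises the position of an additive locus. These positions and counts are therefore not read as a lean to the higher parent. A band of 0.9 to 1.1 left 35 C92-high members (5.23%). A parental ratio of at least 3 left 21 and 8 members, and a higher parent at or above 10 FPKM left 35 C92-high members. With no minimum for the lower parent the C92-high share was 6.28%. Using group medians in place of means gave 53 and 42 members, of which 28 and 10 were members by the means. Quantile normalization and median-ratio scaling kept 43 and 37 of the 54 C92-high members and 27 and 24 of the 30 MH63-high members, and shifted the median log2 difference of all tested loci by -0.0554 at the furthest (C92 minus MH63, quantile).

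With F1 library 3 as the one F1 library, an alternative chosen after seeing the data, MH63-high members numbered 54 (9.63%), the median positions were 0.365 and 0.494, and 2 C92-high members were called above the mid-parent. C92-high members called above the mid-parent numbered 7 with no filter. For MH63-high members the count was 1 with no filter, 1 with a pseudocount of 0.1 and 1 with median-ratio scaling. With the replicate number as a block, 11 and 1 members were called above the mid-parent, and the other counts moved by less than 1.5 times. No consistent pairing of the samples by number was seen: deviations of same-numbered libraries from their group means correlated between -0.432 and 0.343 across loci, against -0.413 and 0.415 for other numbers. With 3 libraries in each group these values are not independent, so the check cannot exclude a pairing. For left-out positions, numbers 2 and 3 left out in every group gave 1.21 and 0.597 (C92-high) and 0.516 and 1.36 (MH63-high), each further from its value with only the F1 library left out (0.944, 0.758, 0.747 and 1.08) than 1 SD of the 3 such values of its class. The cause of these differences was not tested. Without read totals, what depth limits at low levels cannot be stated.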

Other observations

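Loci with a lower parent under 0.5 FPKM stood outside the rule. Of 287 such loci higher in C92, 6 (2.09%) had a position inside the band, and of 141 higher in MH63, 2 (1.42%) did. Their median positions were 0.554 and 0.382.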
